A study of Mus musculus with 6 samples.

Results

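The genes described here encode channels, pumps and carriers that move calcium or phosphate across the membranes of a cell, together with the STIM sensors that open some of these channels. They are genes of processes in which stanniocalcin has been studied. They were taken by name: a locus was a member if its gene name in the deposited files was Stim1, Stim2, Orai1, Orai2, Orai3, Cacna1h, Slc20a1, Slc20a2, Atp2b1 or Slc8a1. Each of the 10 names was found at 1 locus, so that 10 of the 39495 loci in the files are members. Expression was measured by RNA sequencing in 3 libraries from Stc1 knockout (STC1-/- KO) and 3 libraries from wild-type (STC1+/+ WT) mouse embryonic fibroblasts, cells cultured from the connective tissue of embryos. Both genotypes had a C57BL/6 background and the same serum-containing medium, with no other treatment. Embryo age and the disrupted stretch of Stc1 are not in the labels, which also do not tell whether 1 embryo or several supplied each genotype. Replicate numbers only name the libraries and pair none of them. P-values therefore measure only the spread between these libraries, which need not be the spread between embryos.

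Stanniocalcin was first known as a fish hormone that restrains calcium uptake at the gill, and its mammalian relatives have been studied for effects on calcium entry and on sodium-dependent phosphate uptake. In store-operated calcium entry, STIM proteins in the membrane of the endoplasmic reticulum sense the calcium stored there and, when it runs low, open ORAI channels in the plasma membrane. Calcium that has entered is pumped back out by plasma membrane calcium ATPases or exchanged for sodium, and phosphate enters most cells through the sodium-dependent carriers PiT-1 and PiT-2.

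In the KO libraries, 3 of the 10 genes stood higher than in every WT library: Orai2, a store-operated channel pore, Cacna1h, a voltage-gated calcium channel, and Slc20a2, which encodes PiT-2. Their levels were 1.75, 1.78 and 1.76 times the WT levels. No member lay lower than in every WT library, and the other 7 overlapped. Over all 15673 genes tested, groups that did not overlap were found for 5.18% in the direction of higher in KO and for 10.6% in either direction. None of the 10 genes passed the test: edgeR's quasi-likelihood test called 0 members at a Benjamini-Hochberg adjusted p under 0.05, against a background of 0.0% of all genes tested. At an unadjusted p under 0.05 it gave 1 member, Cacna1h, against 3.87% of all genes tested, made up of 1.6% higher and 2.27% lower in KO. DESeq2 also called 0 members, against 0.33% of the 18465 genes for which it gives an adjusted p. At an unadjusted p under 0.05 it gave 3 members (Orai2, Cacna1h and Slc20a2), against 5.2% of the 23509 genes it tested.

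The libraries held between 21882092 and 71488701 estimated fragments. Stc1, the targeted gene, had 6, 0 and 0 fragments in KO replicates 1 to 3, against 2245, 291 and 368 in WT replicates 1 to 3. Since edgeR called 0 of the 15673 genes tested, it did not call Stc1 either. In the authors' deposited table Stc1 has a q-value of 3.67e-06. That no member was called therefore does not show that the members are unchanged. Markers of fibroblasts were abundant in all 6 libraries, with 12 of 13 used. The other, Fn1, was found at a locus marked HIDATA, and such loci were left out. The mean of the 12 was between 7.77 and 8.63 log2 CPM in KO and between 8.52 and 9.40 log2 CPM in WT libraries. Their summed level was 6230, 10100 and 9640 CPM in KO replicates 1 to 3, against 12300, 32000 and 12800 CPM in WT replicates 1 to 3, lower in every KO library. Smooth muscle markers were all found, at 11 loci, more than 1 of them for Lmod1. They summed to between 2680 and 4080 CPM in KO and between 3650 and 9420 CPM in WT libraries. WT replicate 2 was highest on both lists. CPM are fragments scaled to library sizes adjusted by TMM. The libraries also differed in markers of macrophages, of which 17 of 19 were found at a locus of their own. These markers summed to 1040, 111 and 155 CPM in KO replicates 1 to 3 and to 33.4, 1240 and 11700 CPM in WT replicates 1 to 3. By this sum, KO replicate 1 and WT replicates 2 and 3 held the most, but not in the same proportions. C1qb stood at 11.1 CPM in KO replicate 1, against 177 and 2080 CPM in WT replicates 2 and 3. For Mrc1 these values were 7.7, against 89.4 and 552 CPM. Adgre1, in contrast, had 168, against 74.7 and 972 CPM, and Itgam 122, against 69.3 and 595 CPM. The macrophage covariate used below is a single mean and does not carry this difference. At most 1 marker was at 0 in a library, and Cd163 was at 0 in KO replicate 1 and WT replicates 2 and 3. In such bulk samples, fewer cells of a type and less RNA per cell cannot be told apart.

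For the paralogues Orai1 and Orai2, the sequence upstream of each RefSeq start is shown as a description. Both stretches cover 250 to 58 bases before the RefSeq start, on build GRCm38.p6, and the capitals mark matches to the GC box GGGCGG or its complement CCGCCC. The Orai1 window is chr5:123014824-123015016 on the plus strand, and the Orai2 window is chr5:136170714-136170906 on the minus strand. The Orai2 locus in the files runs to 136170878, so that most of its window lies inside the locus. The Orai1 locus starts at 123015074, outside its window. The 2 windows are therefore not alike in position relative to the loci that were counted.
Orai1: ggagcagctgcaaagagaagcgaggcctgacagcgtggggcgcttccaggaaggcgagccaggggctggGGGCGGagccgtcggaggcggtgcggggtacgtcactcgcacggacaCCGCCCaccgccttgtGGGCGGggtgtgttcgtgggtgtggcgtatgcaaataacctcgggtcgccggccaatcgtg
Orai2: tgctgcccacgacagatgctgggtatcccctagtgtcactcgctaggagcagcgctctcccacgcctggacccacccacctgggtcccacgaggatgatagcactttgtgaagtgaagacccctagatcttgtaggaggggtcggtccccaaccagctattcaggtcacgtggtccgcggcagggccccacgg
The Orai1 window held 3 matches to GGGCGG, 1 to CCAAT and 0 to TATAAA, counted on both strands, and the Orai2 window held none of these letters. Of 27025 windows at the same distance from the start of RefSeq genes, 23.4% held GGGCGG, 27.8% held CCAAT and 9.21% held TATAAA. The base composition was 68.9% G or C with 21 CpG dinucleotides for Orai1 and 62.2% with 10 for Orai2. RefSeq promoter entries were matched by symbol for 8 of the 10 members. These are descriptions of the letters in each window and were not set against the libraries.

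**Figure D1:**
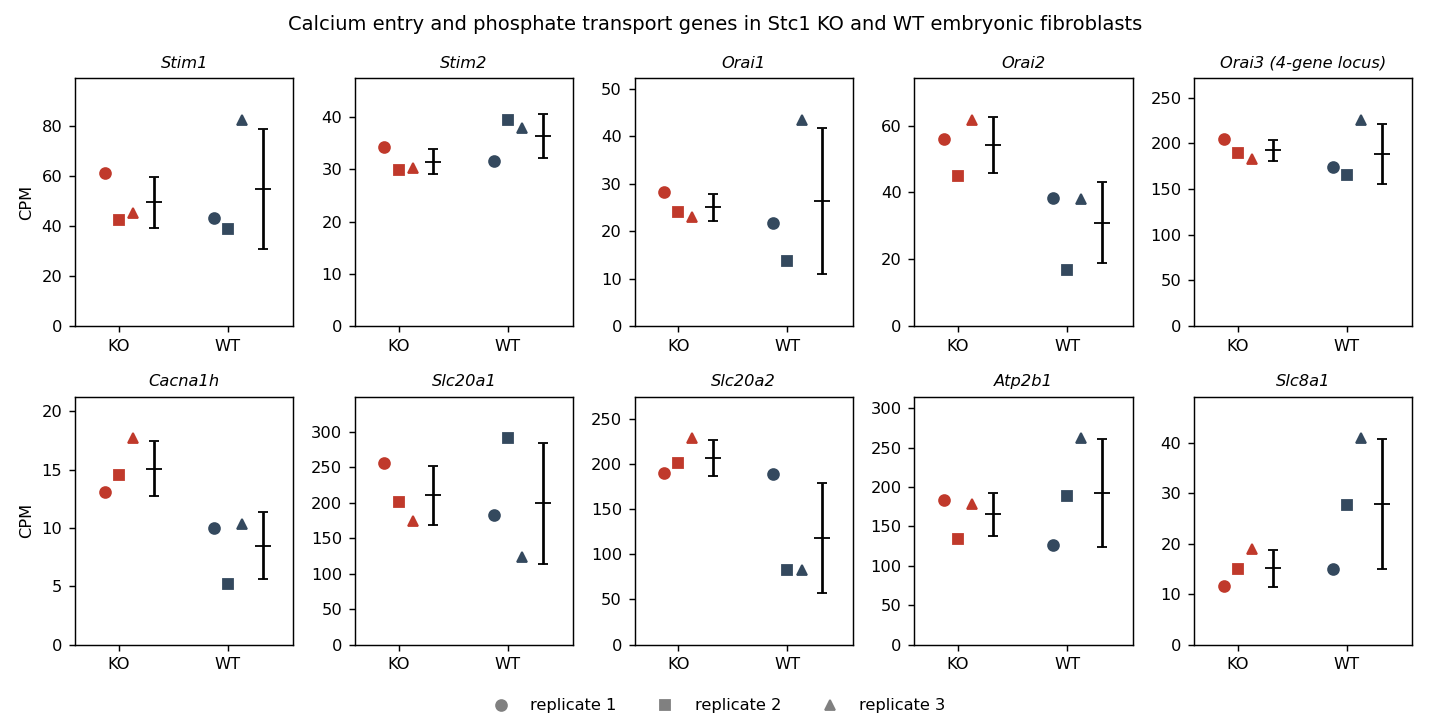
CPM of each of the 10 genes in KO (red) and WT (blue-grey) libraries; symbols mark the replicate, and the black bar gives the mean and SD of 3 libraries. For Orai2, Cacna1h and Slc20a2 all 3 KO libraries lie above all 3 WT libraries, for Slc20a2 by only 190 against 189 CPM between the nearest.

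The calcium sensors of the endoplasmic reticulum overlapped between the genotypes. Stim1 lies on the plus strand of chromosome 7 (mm10, 102267794 to 102437316), a protein-coding gene with up to 13 exons in GENCODE M21, and encodes the main sensor of store depletion. It stood at 61.2, 42.5 and 45.1 CPM in KO replicates 1 to 3, against 43.4, 38.9 and 82.7 CPM in WT replicates 1 to 3. WT replicate 3 held the highest value and WT replicate 2 the lowest, with all KO libraries between them. The fitted log2 fold change of KO over WT was -0.15 with a standard error of 0.34, and its 95% interval ran from -0.97 to 0.67 (adjusted p = 0.896, edgeR). It was 0.27 without WT replicate 3 and 0.09 with the macrophage marker mean as a covariate.

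Stim2, the paralogue that responds to smaller losses of stored calcium, lies on chromosome 5 (53998417 to 54121057, plus strand). It stood at 34.3, 29.9 and 30.2 CPM in KO, against 31.5, 39.5 and 38.0 CPM in WT libraries. Its values spread the least of all members, over 0.40 log2 units between the lowest and the highest library, and the genotypes overlapped only through KO replicate 1 and WT replicate 1. The log2 fold change was -0.21 (standard error 0.15) with a 95% interval of -0.58 to 0.17 (adjusted p = 0.763, edgeR), the narrowest interval among the 10 genes.

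Of the ORAI pore genes, Orai1 overlapped between the genotypes, Orai2 did not, and Orai3 had no value of its own. Orai1 (chromosome 5, 123015074 to 123030450, plus strand) encodes the pore of the classical calcium release-activated current. It stood at 28.2, 24 and 22.9 CPM in KO, against 21.7, 13.8 and 43.5 CPM in WT libraries. The 3 KO libraries lay close together, while WT replicates 2 and 3 held the lowest and the highest value of all 6. Its log2 fold change was -0.08 (standard error 0.42) with a 95% interval of -1.11 to 0.96 (adjusted p = 0.961, edgeR). Without WT replicate 3 it was 0.49. A gene on the opposite strand, Kdm2b, overlaps the locus with 504 to 1750 fragments per library. No source used here says whether the counting used strand, so that their fragments may not be separable.

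Orai2, a channel subunit that can join ORAI1 and dampen its current, lies on the minus strand of chromosome 5 (136147464 to 136170878). It stood at 55.9, 45 and 61.8 CPM in KO, against 38.2, 16.9 and 37.9 CPM in WT libraries. Every KO library lay above every WT library, and WT replicate 2 stood apart from the other two at the low end. The means were 54.3 ± 8.53 CPM in KO and 31.0 ± 12.2 CPM in WT cells (SD, n = 3 each). Its fitted log2 difference, KO over WT, was 0.81 (standard error 0.34) with a 95% interval of -0.03 to 1.65 (adjusted p = 0.763, edgeR), and it was 0.53 without WT replicate 2. It was 0.79 with the macrophage marker mean as a covariate, and 0.48 without KO replicate 1 and WT replicates 2 and 3, which leaves a single WT library that is assumed to vary like the KO ones. In the authors' deposited table Orai2 has a mean FPKM of 12.2 in KO and 6.77 in WT, with a q-value of 1.0.

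Orai3, the third pore gene, could not be measured alone. In the files it shares a locus on chromosome 7 (127743806 to 127803802) with Fbxl19, Setd1a and Hsd3b7, and the 4 genes carry 1 joint value. That locus stood at 205, 189 and 183 CPM in KO, against 174, 165 and 226 CPM in WT libraries, with a log2 fold change of 0.03 (standard error 0.17, 95% interval -0.38 to 0.44, adjusted p = 0.963, edgeR). The value is no statement about Orai3, since Setd1a, Fbxl19 and Hsd3b7 contribute to it in unknown shares.

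Cacna1h encodes Cav3.2, the pore of a T-type calcium channel, which opens at small depolarisations. It lies on the minus strand of chromosome 17 (25374285 to 25433783) and has up to 35 exons. The gene stood at 13.1, 14.5 and 17.7 CPM in KO, against 10.0, 5.18 and 10.3 CPM in WT libraries. Its lowest KO value was above its highest WT value, and WT replicate 2 was again the lowest. That library, the lowest for both Orai2 and Cacna1h, held the most fibroblast and smooth muscle marker RNA, at 32000 and 9420 CPM, and the part of this in the values was not tested. The means were 15.1 ± 2.36 CPM in KO and 8.49 ± 2.87 CPM in WT cells (SD, n = 3 each). In the fit, the log2 fold change was 0.83 (standard error 0.32) with a 95% interval of 0.05 to 1.61, with an unadjusted p of 0.0396 and an adjusted p of 0.763 in edgeR. It rests on 221 to 799 fragments per library, the fewest of all members. With the macrophage marker mean as a covariate the log2 fold change was 0.79 (unadjusted p = 0.0769, edgeR).

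Orai2 and Cacna1h had nearly the same profile over the 6 libraries. Once the log2 CPM of each was centred on its own mean, they differed by a root mean square of 0.152 log2 units, while Orai2 spanned 1.87 and Cacna1h 1.77. Of the 11727 genes compared, those averaging 2 log2 CPM or more, the 3 nearest to Cacna1h were Abhd4 at 0.117, Orai2 at 0.152 and Mgat4b at 0.153. The 3 nearest to Orai2 were Arhgap6 at 0.115, Abhd4 at 0.132 and Cacna1h at 0.152. Abhd4 encodes a lipid hydrolase and Mgat4b an enzyme of N-glycan branching. Orai1 lay 0.526 and Slc20a2 0.409 from Orai2 on the same measure. All these profiles share the same 6 libraries, and the likeness is a description of them.

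**Figure D2:**
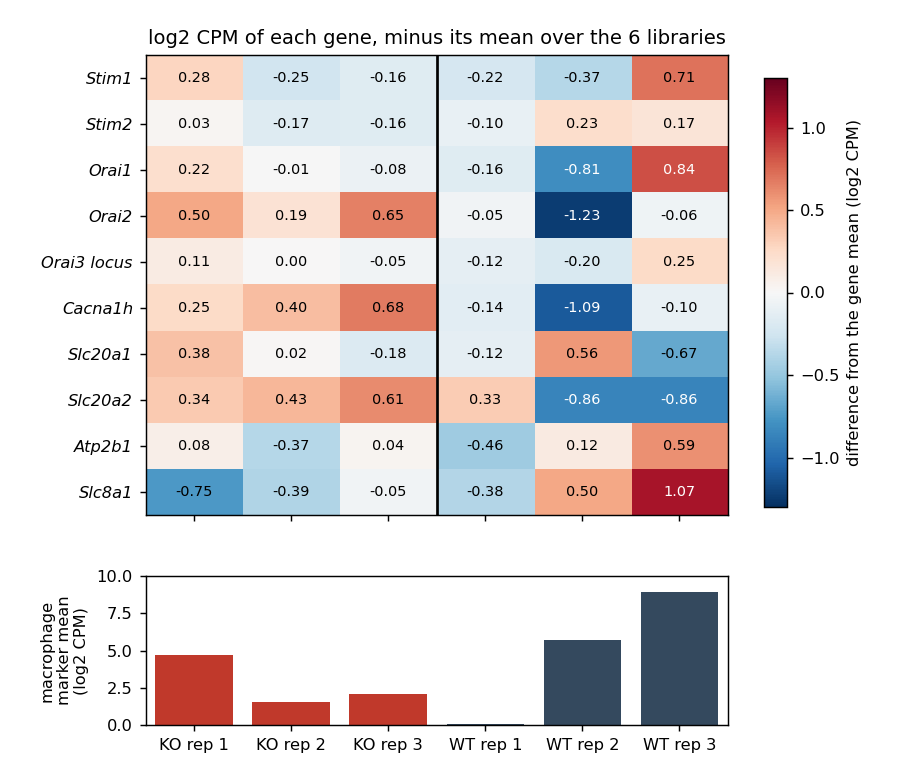
Upper panel: log2 CPM of each gene minus its mean over the 6 libraries, KO libraries on the left, red above and blue below the mean. Lower panel: mean log2 CPM of the 15 tested macrophage markers. Orai2 and Cacna1h are above their mean in the 3 KO libraries and lowest in WT replicate 2, and Slc8a1 is highest in WT replicates 2 and 3.

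The genes that take calcium out of the cell stood lower in KO libraries on average and overlapped. Slc8a1 encodes NCX1, the sodium-calcium exchanger best known from heart muscle, and lies on the minus strand of chromosome 17 (81382351 to 81670181 in the files). It stood at 11.6, 14.9 and 18.9 CPM in KO, against 15.0, 27.6 and 40.9 CPM in WT libraries. WT replicates 2 and 3 were above every KO library, while WT replicate 1 lay among them. A log2 fold change of -0.88 (standard error 0.40) was fitted, with a 95% interval of -1.86 to 0.10 (adjusted p = 0.763, edgeR). The macrophage marker mean was 5.74 and 8.92 log2 CPM in WT replicates 2 and 3 and 0.07 in WT replicate 1. It was 4.70 log2 CPM in KO replicate 1, which had the lowest Slc8a1 value of all. The log2 fold change was -0.46 with the macrophage marker mean as a covariate and -0.49 without WT replicate 3. It was 0.17 without the 3 libraries richest in those markers, which leaves WT replicate 1 as the single WT library. The part of macrophage RNA in this difference was not tested beyond these fits.

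Slc8a1 is also expressed in muscle. The 8 cardiac muscle markers found at a locus of their own summed to between 2.68 and 5.81 CPM in KO and between 4.26 and 11.7 CPM in WT libraries. The 11 skeletal muscle markers found summed to between 14.0 and 28.2 CPM in KO and between 26.1 and 103 CPM in WT libraries. At most 3 of the cardiac and 5 of the skeletal muscle markers were at 0 in a KO library, and at most 2 and 3 in a WT library. Their part in the values of the calcium genes was not tested.

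Atp2b1 encodes PMCA1, the plasma membrane calcium pump found in most cells, and lies on the plus strand of chromosome 10 (98914661 to 99026213). It stood at 183, 134 and 179 CPM in KO, against 126, 189 and 262 CPM in WT libraries. The lowest and the highest value were both WT. Its log2 fold change was -0.22 (standard error 0.30) with a 95% interval of -0.94 to 0.51 (adjusted p = 0.826, edgeR). It was 0.07 without WT replicate 3 and 0.08 with the macrophage covariate.

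The sodium-dependent phosphate carriers had the highest mean FPKM of the members with a locus of their own, although in WT libraries Slc20a2 was above Atp2b1 in only 1 of 3. Slc20a2, the PiT-2 gene on chromosome 8 (22476700 to 22569607, plus strand), stood at 190, 202 and 229 CPM in KO, against 189, 82.7 and 82.6 CPM in WT libraries. WT replicate 1 all but reached KO replicate 1, and WT replicates 2 and 3 stood far below both. Means were 207 ± 20.1 CPM in KO and 118 ± 61.1 CPM in WT cells (SD, n = 3 each). The fit gave a log2 fold change of 0.81 (standard error 0.36) with a 95% interval of -0.08 to 1.70 (adjusted p = 0.763, edgeR). With upper quartile scaling the genotypes overlapped, since the lowest KO value was 190 and the highest WT value 191 CPM.

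For Slc20a2 the difference depended on which WT libraries were used. Without WT replicate 1 the log2 fold change was 1.33, with an unadjusted p of 3.94e-04 and an adjusted p of 0.103 in edgeR, the lowest adjusted p of any member in any fit. In that fit 18.4% of all 15960 genes tested, and 4 of the 10 members, had an unadjusted p under 0.05. Without KO replicate 1 and WT replicates 2 and 3, which leaves a single WT library, the log2 fold change was 0.19. With the macrophage marker mean as a covariate it was 0.64 (unadjusted p = 0.0239, edgeR). In that covariate fit 420 higher and 197 lower of all 15673 genes tested had an unadjusted p under 0.05. At an adjusted p under 0.05 the covariate fit called 0 genes. The macrophage marker mean was 4.70 log2 CPM in KO replicate 1, against 5.74 and 8.92 log2 CPM in WT replicates 2 and 3, and the part of these markers in the Slc20a2 difference was not tested beyond these fits. In the authors' deposited table Slc20a2 has a mean FPKM of 47.0 in KO and 26.1 in WT, with a q-value of 1.0.

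Slc20a1, the PiT-1 gene on chromosome 2 (129196129 to 129211617, plus strand), stood at 256, 201 and 174 CPM in KO, against 182, 291 and 124 CPM in WT libraries. The WT libraries held both the highest and the lowest value. The log2 fold change was 0.08 (standard error 0.34) with a 95% interval of -0.75 to 0.91 (adjusted p = 0.949, edgeR), and it was -0.17 without WT replicate 3 and 0.47 without WT replicate 2. Estimated fragments of Slc20a1 and Slc20a2 were not whole numbers in all 6 libraries. Both carriers are also overlapped on the opposite strand, Slc20a1 by 9830144P21Rik with 501 to 1600 fragments and Slc20a2 by AI316807 with 238 to 850.0 fragments per library. On its own strand Slc20a2 is overlapped by AC140326.1, with 39 to 103 fragments, which strand cannot separate.

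**Figure D3:**
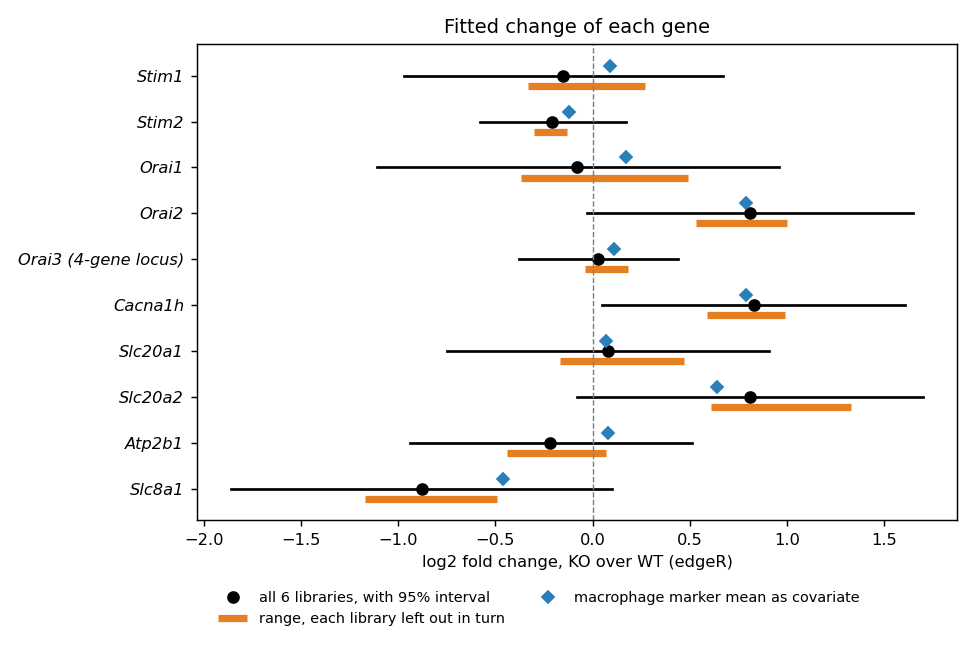
Fitted log2 fold change of KO over WT for each gene, with all 6 libraries (black point, line for the 95% interval), the range of values with each library left out in turn (orange bar) and the value with the macrophage marker mean as a covariate (blue diamond). Cacna1h is the one gene whose interval, 0.05 to 1.61, lies wholly on one side of 0, without adjustment for the number of genes tested.

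Between genes, levels are given in FPKM, in which the authors scaled fragments by length and library size, because CPM do not account for length. In KO libraries the order of mean levels was Slc20a1 (63.2 FPKM), Slc20a2 (47.1), Atp2b1 (18.8), Orai1 (13.7), Orai2 (12.2), Stim1 (10.5), Stim2 (9.89), Slc8a1 (2.85) and Cacna1h (2.13 FPKM). The ranges of neighbours were apart between Slc20a2 and Atp2b1, between Atp2b1 and Orai1 and between Stim2 and Slc8a1, and overlapped elsewhere. In WT libraries the order was Slc20a1 (59.5 FPKM), Slc20a2 (26.1), Atp2b1 (21.6), Orai1 (14.4), Stim1 (11.5), Stim2 (10.5), Orai2 (6.77), Slc8a1 (5.18) and Cacna1h (1.18 FPKM). There the ranges of neighbours were apart between Stim2 and Orai2 and between Slc8a1 and Cacna1h only. By mean, Orai2 stood directly after Orai1 in KO cells, with ranges that overlapped those of Orai1 and Stim1, and after both STIM genes in WT cells.

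The balance between paralogues was compared as the FPKM ratio within each library. Orai2 reached 0.839, 0.767 and 1.09 times the level of Orai1 in KO replicates 1 to 3, against 0.712, 0.492 and 0.348 times in WT replicates 1 to 3. Every KO ratio was above every WT ratio. The mean log2 ratio was -0.17 ± 0.27 in KO and -1.01 ± 0.52 in WT cells (SD, n = 3 each), a difference of 0.84. Its two-sided p was 0.1 by exact permutation of the libraries, which is the lowest p this design can reach, and 0.4 once adjusted over the 4 ratios. Among the WT libraries Orai2 was lowest in replicate 2 and Orai1 highest in replicate 3.

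PiT-2 transcripts reached 0.578, 0.719 and 1.01 times the level of PiT-1 transcripts in KO libraries, against 0.748, 0.213 and 0.518 times in WT libraries. These ratios overlapped through WT replicate 1, with a difference in the mean log2 ratio of 0.78 (two-sided exact permutation p = 0.3, adjusted p = 0.6). Without WT replicate 2 the difference was 0.27. Stim2 stood at 0.922, 0.949 and 0.971 times the level of Stim1 in KO, against 1.02, 1.40 and 0.632 times in WT libraries. The KO ratios lay within the span of the WT ones, with a difference of -0.03 on the log2 scale (two-sided exact permutation p = 0.9, adjusted p = 0.9). The joint locus of Orai3 stood at 3.02 to 3.27 times Orai1 in KO and 2.92 to 4.16 times in WT libraries (two-sided exact permutation p = 0.9, adjusted p = 0.9).

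**Figure D4:**
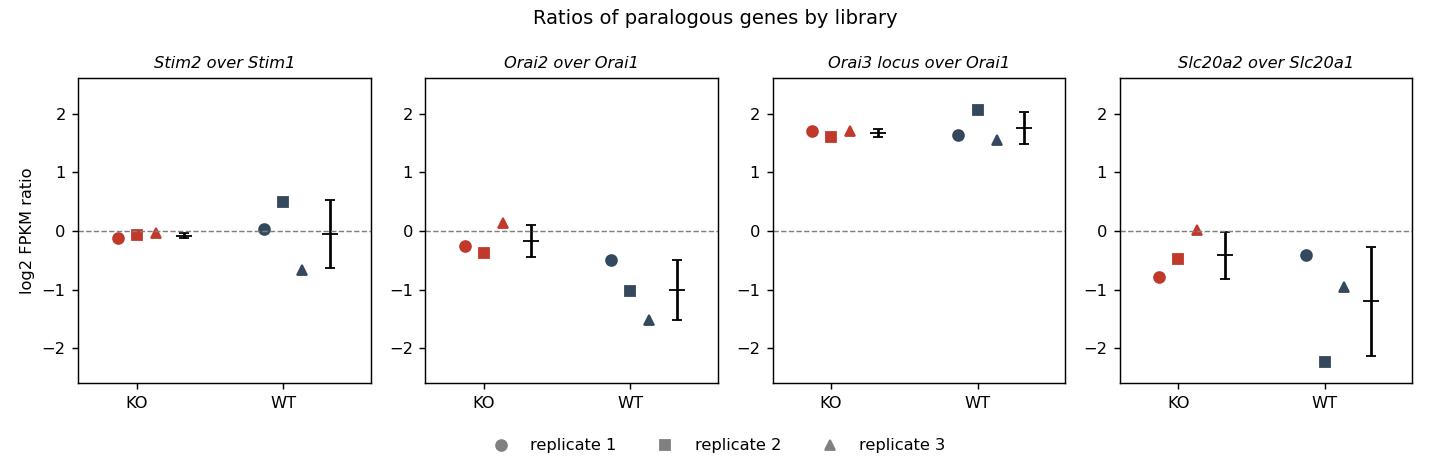
log2 of the FPKM ratio of paralogous genes in each library, KO left and WT right in each panel; symbols mark the replicate, bars the mean and SD of 3 libraries, and the dashed line equal levels. Only for Orai2 over Orai1 do the genotypes not overlap among these 4 ratios, with the 3 KO libraries between 0.767 and 1.09 times and the 3 WT libraries between 0.348 and 0.712 times.

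Of the 9 members with a locus of their own, 4 had a positive and 5 a negative fitted log2 fold change, with a median of -0.08, beside a median of -0.05 and 44.4% positive over all genes tested. The extremes of the 10 profiles lay mostly in WT libraries. Counting the joint Orai3 locus, WT replicate 3 held the highest value of 5 members and WT replicate 2 the lowest value of 5, while KO replicate 3 was highest for the 3 genes that stood apart.

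The wider pathway was read from 9 lists of further channels, pumps, carriers and their regulators. The listed names were found at 166 loci, while Tmem178b, Jph3, Piezo1 and Mrln were not found by name. Of these loci, 116 carried a single gene and were tested. edgeR called 0 of the 116, as did DESeq2. At an unadjusted p under 0.05 edgeR gave 0 higher and 3 lower genes, or 2.59% against 3.87% of all genes tested. Groups did not overlap for 5 genes higher and 6 lower, beside 5.18% and 5.44% of all genes tested. Log2 fold changes were positive for 39 and negative for 77 of the 116, with a median of -0.15. Over all genes tested 44.4% were positive, with a median of -0.05, and 49.1% were positive with the macrophage covariate. The lists were described and not tested as sets.

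Among 12 tested subunits of other voltage-gated channels (median -0.07), the smallest p was that of Cacna1i, a further T-type channel gene. Cacna1i stood at 1.32, 1.64 and 3.31 CPM in KO, against 1.15, 0.211 and 0.186 CPM in WT libraries, with a log2 fold change of 2.0 (standard error 0.84, adjusted p = 0.763, edgeR). Cacnb3, an auxiliary beta subunit, stood at 97.0 ± 9.72 CPM in KO and 58.4 ± 25.2 CPM in WT cells, and WT replicate 1 overlapped with the KO libraries. Cacna1d, an L-type pore, had 22.1 CPM in WT replicate 3 and 3.30 CPM or less in every other library. Its log2 fold change was -3.22, and -0.05 with the macrophage covariate.

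Of 19 tested regulators of store-operated entry, 5 were positive and 14 negative (median -0.25). Asph, whose locus also yields junctional proteins of the calcium store, stood at 151 ± 16.4 CPM in KO and 183 ± 16.4 CPM in WT cells. Jph2, which ties the store to the plasma membrane, stood at 27.7 ± 12.1 CPM in KO and 45.9 ± 17.3 CPM in WT cells. Both had an adjusted p = 0.763 in edgeR.

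Among 12 other calcium-permeable channels (3 positive, 9 negative, median -0.24), the mechanosensitive channel gene Piezo2 stood at 13.4, 16 and 15.5 CPM in KO, against 27.9, 81.1 and 20.8 CPM in WT libraries. No KO library reached a WT one. Its log2 fold change was -1.53 (standard error 0.53, unadjusted p = 0.0292, adjusted p = 0.763, edgeR), and at its weakest -0.68 when 1 library was left out. Tmem63b, an osmosensitive channel, stood at 148 ± 10.8 CPM in KO and 88.6 ± 38.6 CPM in WT cells. The groups of Tmem63b did not overlap, like those of Trpm7, a channel fused to a kinase, at 126 ± 15.3 CPM in KO and 152 ± 11.5 CPM in WT cells.

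The other export genes gave 3 positive and 4 negative values among 7 tested (median -0.16). Atp2b4, a further plasma membrane calcium pump, stood at 18.9 ± 5.87 CPM in KO and 37.0 ± 19.2 CPM in WT cells. Slc8a3, a paralogue of NCX1, stood at 1.81 ± 0.256 CPM in KO and 1.11 ± 0.46 CPM in WT cells. Slc24a3, a potassium-dependent exchanger gene, stood at 12.5 ± 2.56 CPM in KO and 20.7 ± 11.3 CPM in WT cells. The groups overlapped for all 3.

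Genes of the calcium store gave 4 positive and 12 negative values among 16 tested (median -0.08). The endolysosomal channel genes Tpcn1 and Tpcn2 were highest in WT replicate 3, at 94.0 and 65.4 CPM, and the ryanodine receptor gene Ryr3 stood at 1.48 ± 0.624 CPM in KO and 2.48 ± 1.43 CPM in WT cells. The genotypes overlapped for each of them. Of 9 genes of mitochondrial calcium uptake, 2 were positive and 7 negative (median -0.13). Mcu, the pore of the uniporter, stood at 22.4, 22.8 and 21.7 CPM in KO, against 25.8, 40.9 and 25.6 CPM in WT libraries, apart in every library, with a log2 fold change of -0.46 (standard error 0.23, adjusted p = 0.763, edgeR). Its regulator Mcur1 stood at 22.6 ± 2.93 CPM in KO and 36.9 ± 21.5 CPM in WT cells. Micu3, of the uniporter's gatekeeper family, stood at 9.08 ± 1.62 CPM in KO and 12.3 ± 4.14 CPM in WT cells.

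Of 10 tested genes of phosphate transport and pyrophosphate metabolism, 5 were positive and 5 negative (median near 0). Alpl, the tissue-nonspecific alkaline phosphatase that frees phosphate for mineral, stood at 2.68, 1.69 and 1.84 CPM in KO, against 1.27, 0.445 and 0.166 CPM in WT libraries. Each KO library was above each WT library at this low level, with a log2 fold change of 1.70 (standard error 0.74, adjusted p = 0.763, edgeR). Enpp1, which makes pyrophosphate, stood at 18.7, 10.4 and 16.3 CPM in KO, against 7.39, 68.0 and 58.4 CPM in WT libraries. Slc37a2, a sugar phosphate carrier known from macrophages, had 479 CPM in WT replicate 3 and 35.2 CPM or less elsewhere. With the macrophage covariate the log2 fold changes of Enpp1 and Slc37a2 were -0.43 and -0.30, in place of -1.56 and -2.94.

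The list for the hormonal control of calcium and phosphate holds receptor and enzyme genes as well as hormone genes. Of its 17 genes, 5 were expressed enough to be tested, 3 positive and 2 negative (median 0.27). Vdr, the vitamin D receptor gene, stood at 8.81 ± 4.05 CPM in KO and 17.0 ± 6.74 CPM in WT cells. Pth1r, the parathyroid hormone receptor gene, stood at 4.46, 5.82 and 5.79 CPM in KO, against 7.09, 12.3 and 5.84 CPM in WT libraries, where the nearest libraries were KO replicate 2 and WT replicate 3. Fgfr1, a receptor for phosphate-regulating FGF23 among other ligands, stood at 670.0 ± 133 CPM in KO and 504 ± 376 CPM in WT cells.

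Downstream of calcium, 9 of 26 tested calcineurin and calmodulin genes were positive and 17 negative (median -0.18). The calcium-binding protein gene S100a4, which is also on the list of fibroblast markers, stood at 181, 339 and 348 CPM in KO, against 558, 410 and 546 CPM in WT libraries, with no overlap and a log2 fold change of -0.80 (standard error 0.30, unadjusted p = 0.0364, adjusted p = 0.763, edgeR). Nfatc2, a transcription factor that calcineurin activates, had 41.7 CPM in WT replicate 3 and 6.60 CPM or less in the other libraries. Its log2 fold change was -3.25, and -0.94 with the macrophage covariate. Nfatc1, of the same family, stood at 21.5 ± 4.43 CPM in KO and 39.4 ± 17.7 CPM in WT cells, with overlap through WT replicate 1.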

How the data were processed

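Messenger RNA of 3 Stc1 KO and 3 WT fibroblast libraries was sequenced with a stranded kit, per the labels' protocols. The submitters' processing notes name CASAVA 1.8.2, TopHat2 2.0.6, Cuffdiff 2.0.1 and the mm10 build, with no role or order. Per the file headers, the authors deposited for each locus an estimated count of fragments (expected counts, 24.2% of values above 0 not whole) and an FPKM, scaled by length and library. The authors' deposited comparison table gives mean FPKM, a log2 fold change, a p-value and a q-value; 4 members had a row under their own name.

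Loci without a gene name (2667, 0.507% to 0.555% of fragments) and 16 loci marked HIDATA were left out, which left 36812. Counts were rounded and tested in edgeR 4.0.16 under R 4.3.3 (filterByExpr, TMM, robust quasi-likelihood F test, Benjamini-Hochberg over 15673 genes). The common biological coefficient of variation was 0.467. Standard errors are the fold change over the root of F, and 95% intervals are for single genes. Ratios were tested with SciPy 1.17.1. The script was tested on data simulated with a smaller spread between libraries than was fitted here. That test does not show how calls or intervals behave at the fitted spread. Alternatives used DESeq2 1.42.0, limma 3.58.1 on voom weights or log2(FPKM + 1) and log2(FPKM + 0.1), RLE and upper quartile scaling, other filters, a fit without loci marked FAIL, a macrophage covariate (mean of 15 markers) and fits without libraries.

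Whether the groups overlap under other scalings was looked at after the values were seen. The members and lists were chosen with earlier results of these data known. Named genes were all members and, from each list, the 3 genes with the smallest p at a mean log2 CPM of at least 0. Of these, 1 gene is not reported here. The nearest profiles were named for the 2 members with the smallest p.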

Additional observations from a re-analysis of the deposited data

How the results depend on the processing

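No member was called at an adjusted p under 0.05 by any of the 18 alternatives, whose adjusted p ran from 0.103 to 1.0 over the members. Over all genes the main test called 0 higher and 0 lower. DESeq2 called 29 higher and 32 lower, and limma on log2(FPKM + 0.1) called 1 higher. The other alternatives called 0 in both directions. Without WT replicate 1 the genes at an unadjusted p under 0.05 numbered 1613 higher and 1326 lower, against 251 and 356 with all libraries. Orai2, Cacna1h, Slc20a2 and Stim2 kept the sign of their log2 fold change in all 18 alternatives. With 1 library left out, the log2 fold change ran from 0.53 to 1.0 for Orai2, from 0.59 to 0.99 for Cacna1h, from 0.61 to 1.33 for Slc20a2 and from -1.17 to -0.49 for Slc8a1.

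The sign turned for Slc8a1 (main value -0.88) and for 5 genes with main values between -0.22 and 0.08, and the cause was not tested. With the macrophage marker mean as a covariate the log2 fold change was 0.08 for Atp2b1, 0.17 for Orai1 and 0.09 for Stim1. Without the libraries richest in macrophage markers a single WT library was left. In that fit the log2 fold change was 0.31 for Atp2b1, 0.17 for Slc8a1, 0.11 for Orai1 and 0.01 for Stim1. For Orai1 it was 0.06 with limma-voom, 0.07 on log2(FPKM + 1) and 0.09 on log2(FPKM + 0.1). With 1 library left out it ran from -0.44 to 0.07 for Atp2b1, from -0.17 to 0.47 for Slc20a1, from -0.37 to 0.49 for Orai1, from -0.33 to 0.27 for Stim1 and from -0.04 to 0.18 for the Orai3 locus. The difference in the log2 ratio ran from -0.338 to 0.236 for Stim2 over Stim1, from -0.181 to 0.0733 for the Orai3 locus over Orai1, from 0.587 to 1.10 for Orai2 over Orai1 and from 0.267 to 1.17 for Slc20a2 over Slc20a1. No paired analysis was possible because the replicate numbers follow accession order and no label ties a KO library to a WT library.

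Members had 221 to 13315 fragments per library, so that the spread between libraries, not counting error, limits these comparisons.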
